A study of Mus musculus with 10 samples.

Results

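A set of 10 long noncoding RNAs (lncRNAs) was followed, with the genes next to them, through the brown adipose tissue of chow-fed mice and of mice prone or resistant to obesity on a high-fat diet. All 10 were found among the 32889 genes of the expression table by their symbols: Lncenc1, 9430085M18Rik, Gm46489, Gm34218, 1700047G03Rik, Gm45954, Gm31522, Gm39447, Gm32762 and Gm35196. Each passed the filter on low counts that 19676 genes passed, 2207 of them lncRNAs. The set was chosen by measured values, the group differences of these lncRNAs in earlier results of the same libraries, so its own group differences are given as values with no test. Tests are given for the neighbouring genes, which are not members.

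The libraries came from wild-type C57BL/6J mice: 4 from control mice on regular chow, 3 from obesity-prone mice and 3 from obesity-resistant mice, the last 2 groups both on a high-fat diet. Ages, sexes, time on the diet and the measure that split prone from resistant mice are not given in the sources used here, nor whether each library came from a separate animal. P-values therefore measure only the spread between these samples. Library totals lay between 35583997 and 37327770 expected counts, and levels are CPM, counts scaled to each library's TMM-normalised size. All 8 brown adipocyte markers looked for were present, with the uncoupling protein gene Ucp1 at a mean of 8037 CPM over the 10 libraries and Cidea at 766. Lep, which encodes leptin, had a log2 fold change of 3.71 in prone and -0.59 in resistant libraries against control. On erythrocyte genes, control replicate 4 and obesity-prone replicate 3 stood apart from their groups. The summed level of 5 erythrocyte genes was 4500 CPM in control replicate 4 against 601 to 903 in the other controls. In obesity-prone replicate 3 it was 16086 CPM, and the summed level of 8 brown adipocyte genes was 3976 CPM there against 8914 to 12952 in the other libraries. Libraries of a group also differed in the summed level of 8 skeletal muscle genes. This sum was 1.31, 601, 288 and 0.884 CPM in control replicates 1 to 4. It was 26.7, 1.33 and 53.6 in prone and 2.06, 160 and 536 in resistant replicates 1 to 3. Its part in the results was not tested.

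An lncRNA is transcribed and often spliced like a messenger RNA but encodes no known protein. Some act on the gene next to which they are made, some bind proteins or other RNAs elsewhere in the cell, and for many the act of transcription, or nothing known, is the only effect. Lncenc1 was described in mouse embryonic stem cells, where it works with the RNA-binding proteins PTBP1 and HNRNPK on genes of glycolysis. For the other members no role is stated here. They are therefore ordered by their place in the genome: within a coding gene, close to a gene that itself differed, or apart from either.

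Between obesity-prone and control libraries, 5 members were higher (Lncenc1, 9430085M18Rik, 1700047G03Rik, Gm45954 and Gm31522) and 5 lower (Gm46489, Gm34218, Gm39447, Gm32762 and Gm35196). Of all genes tested, 7% passed edgeR's quasi-likelihood test in this comparison (1377 of 19676), 3.71% higher and 3.29% lower, and of the lncRNAs 5.35%. The prone and control libraries did not overlap for any of the 10, which is true of 20.3% of all genes. These counts follow from how the set was chosen. Resistant and control libraries did not overlap for 5 members (20.2% of all genes), each on the same side of control as in the prone libraries: Lncenc1, 9430085M18Rik, 1700047G03Rik, Gm45954 and Gm35196. For the other 5 they overlapped. Prone and resistant libraries did not overlap for 6 (19.7% of all genes): Lncenc1, 1700047G03Rik, Gm46489, Gm34218, Gm39447 and Gm35196. These overlaps were judged in CPM. For Gm35196, prone replicate 2 and resistant replicate 3 held 6 counts each, at 0.163 and 0.165 CPM. For 1700047G03Rik, control replicate 4 held 36 counts and resistant replicate 1 held 35. In FPKM the prone and resistant libraries overlapped for both of these lncRNAs. Comparisons with control share the 4 control libraries.

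**Figure D1:**
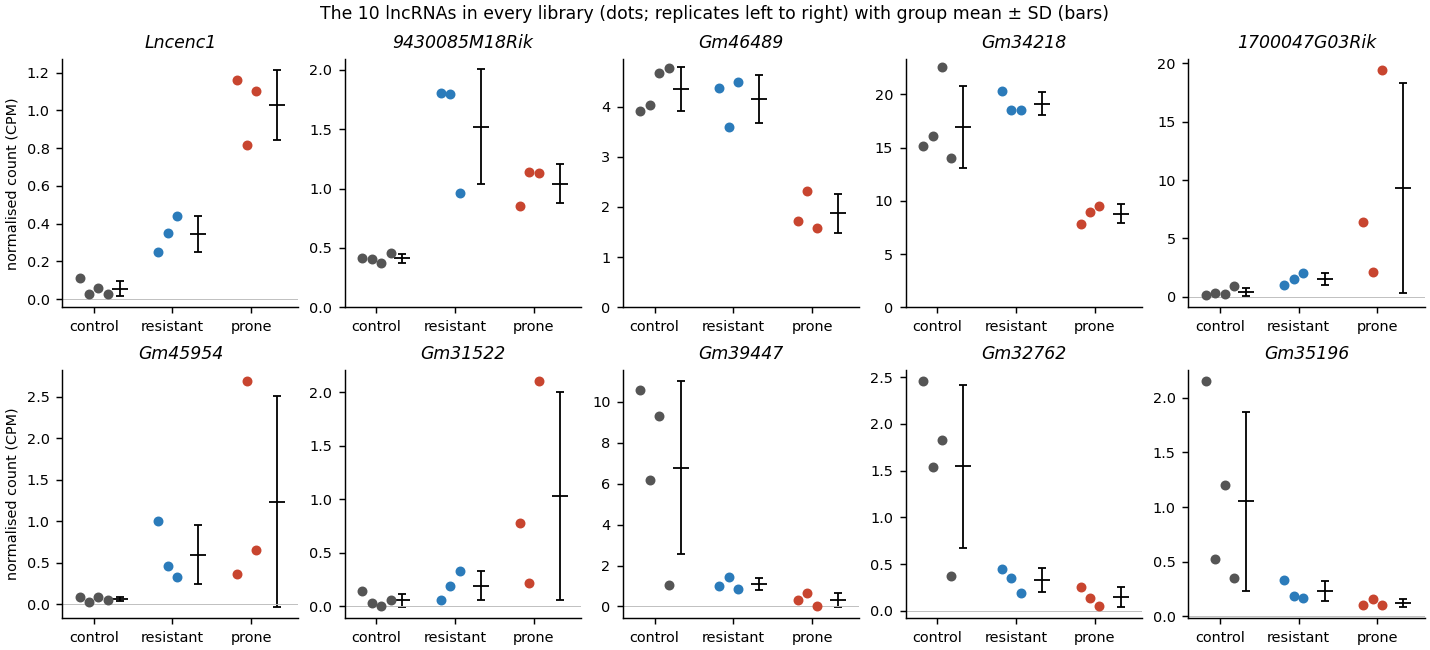
Normalised counts (CPM, linear axes that differ between panels) of the 10 lncRNAs in each library, with replicates from left to right and bars for the group mean ± SD (n = 4 control, 3 resistant, 3 prone). Gm46489 and Gm34218 are low only in the prone libraries, and in the 3 lncRNAs that end the lower row control replicate 4 lies below the other controls.

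Expression per transcript length (read as FPKM, averaged over the libraries of a group) placed Gm39447 at the top in control brown fat, at 10.2 ± 6.30, followed by Gm34218 at 9.62 ± 2.15. Those levels lay within their spread of each other. Gm32762 followed at 2.05 ± 1.15 and Gm46489 at 1.25 ± 0.152, also within their spread. The other 6 lay between 0.0200 for Lncenc1 and 0.453 for Gm35196. In obesity-prone libraries the order began with 1700047G03Rik at 8.77 ± 9.13, Gm34218 at 5.65 ± 1.01 and Gm45954 at 1.39 ± 1.38, of which the first and the last had an SD about as large as the mean. In obesity-resistant libraries Gm34218 was highest, at 10.9 ± 0.951 FPKM. There Gm39447 at 1.81 ± 0.870, 1700047G03Rik at 1.43 ± 0.566, Gm46489 at 1.24 ± 0.114 and 9430085M18Rik at 1.04 ± 0.330 did not differ beyond their spread.

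Gm34218 and Gm46489 lie inside coding genes and were lower in obesity-prone libraries alone. Gm34218 (chr4:98018088-98023101, minus strand, GRCm38.p6) lies within Nfia, which is read from the plus strand and encodes a transcription factor of the brown fat gene program. Its span holds 1 internal Nfia exon (chr4:98020827-98020954, 128 bases), and otherwise Nfia intron. Without a strand-specific count, reads of an overlapping exon cannot be assigned to one of the genes with certainty, and a strand setting is not given in the sources used here. The window from 250 bases before to 50 bases after the first annotated start of Gm34218 (chr4:98023052-98023351, minus strand, RefSeq, GRCm38.p6) is shown since this antisense start lies inside Nfia, with a TATAAA match, read as TTTATA on this strand, and a CCAAT match in capitals:
Gm34218: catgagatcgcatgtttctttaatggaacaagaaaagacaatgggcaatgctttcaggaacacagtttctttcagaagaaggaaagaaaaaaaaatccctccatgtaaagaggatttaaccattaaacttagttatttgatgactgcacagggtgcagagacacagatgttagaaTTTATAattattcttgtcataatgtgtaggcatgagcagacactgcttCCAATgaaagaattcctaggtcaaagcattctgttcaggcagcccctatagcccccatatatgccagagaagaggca
The TATAAA match begins at position -75 and the CCAAT match at -27, counted from the start base as 0. Among 32851 windows of this kind in the genome, 13.6% held TATAAA and 37.4% CCAAT on either strand, so neither match sets Gm34218 apart.

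Gm34218 stood at 15.1, 16.1, 22.6 and 14.03 CPM in control replicates 1 to 4, at 7.84, 8.97 and 9.55 in obesity-prone replicates 1 to 3 and at 20.4, 18.5 and 18.5 in obesity-resistant replicates 1 to 3. All 3 prone libraries were below every control and every resistant library, and the control and resistant ranges overlapped. Its log2 fold change was -0.95 ± 0.16 (SE of the fit) for prone against control, 0.17 ± 0.16 for resistant against control and -1.12 ± 0.17 for prone against resistant. Without the libraries that stood apart, control replicate 4 and prone replicate 3, the first of these was -1.09.

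Nfia, the host gene, fell in obesity-prone libraries. It measured 673, 667, 717 and 576 CPM in control replicates 1 to 4, 411, 483 and 335 in prone replicates 1 to 3 and 690, 611 and 580 in resistant replicates 1 to 3. As with Gm34218, every prone library lay below all others. The log2 fold change against control was -0.68 ± 0.15 (edgeR, adjusted p = 0.028) for prone and -0.07 ± 0.14 (adjusted p = 0.84) for resistant libraries. The prone against resistant difference was -0.61 ± 0.15 and did not pass in edgeR (adjusted p = 0.23), while it passed in DESeq2 (adjusted p = 0.0099). The call against control was lost without control replicate 1, 2 or 3, prone replicate 1 or resistant replicate 2, with adjusted p from 0.016 to 0.087 over the 10 fits, and in a fit of only the prone and control libraries (adjusted p = 0.080). Per 100 Nfia counts there were 2.56 ± 0.399 Gm34218 counts in control, 2.21 ± 0.560 in prone and 3.06 ± 0.126 in resistant libraries, and the prone range of 1.86 to 2.85 overlapped the control range of 2.25 to 3.15 and lay below the resistant range of 2.95 to 3.198. Within groups, the deviations of Gm34218 and Nfia from their group means gave r = 0.32 over 10 libraries (exact permutation within groups, two-sided, p = 0.35, adjusted p = 0.46 over 16 pairs of a member and a neighbour). Spearman's rho was 0.28 (p = 0.49, adjusted p = 0.64). Without prone replicates 1 and 2, the libraries farthest from the median of Gm34218, r was 0.73.

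Tm2d1, a TM2-domain membrane protein gene and the nearest coding gene beyond Nfia, lies 332269 bases from Gm34218. It fell from 21.8 ± 1.67 CPM in control to 14.8 ± 1.31 in prone libraries (log2 fold change -0.56 ± 0.10, adjusted p = 0.020). In resistant libraries it stood at 16.6 ± 1.35 CPM, also below every control library (-0.39 ± 0.10, adjusted p = 0.10). Over both high-fat groups its log2 fold change was -0.47 ± 0.08 (adjusted p = 0.019). Its prone call was lost without control replicate 2 or 3 or prone replicate 1 (adjusted p from 0.0091 to 0.066 over the 10 fits), in a fit of only the prone and control libraries (0.065) and by limma without a filter (0.053). Its call over both high-fat groups was lost without control replicate 1, 2 or 3 or resistant replicate 1 (0.0077 to 0.079) and by limma without a filter (0.051).

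Gm46489 (chr14:122749014-122753081, plus strand) lies in an intron of Pcca, on the same strand. Pcca encodes a subunit of propionyl-CoA carboxylase, which handles the propionyl-CoA left by the breakdown of branched-chain amino acids and odd-chain fats. The nearest Pcca exons end 11010 bases before and begin 37275 bases after the lncRNA. Gm46489 stood at 3.91, 4.03, 4.67 and 4.77 CPM in control replicates 1 to 4, at 1.73, 2.31 and 1.58 in prone replicates 1 to 3 and at 4.37, 3.60 and 4.497 in resistant replicates 1 to 3. The prone libraries lay below all 7 others, which overlapped each other. Gm46489 had a log2 fold change of -1.21 ± 0.18 for prone against control, -0.07 ± 0.17 for resistant against control and -1.15 ± 0.18 for prone against resistant.

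Pcca itself did not pass in any of these comparisons. It stood at 142, 133, 159 and 111 CPM in control, 153, 166 and 86.2 in prone and 156, 131 and 164 in resistant libraries, with the lowest value in prone replicate 3. Prone against control gave a log2 fold change of -0.01 ± 0.21 (adjusted p = 0.98). Per 100 Pcca counts, Gm46489 had 3.26 ± 0.702 counts in control, 1.45 ± 0.353 in prone and 2.76 ± 0.0278 in resistant libraries, and the prone range of 1.13 to 1.83 did not reach the others. Besides Pcca, the nearest coding genes to Gm46489 were Gm46487 (chr14:122630485-122634038), which also lies inside the Pcca span, and Ggact. They gave -0.72 ± 0.25 (adjusted p = 0.10) and -0.25 ± 0.19 (0.41) for prone against control. For Gm46487 the prone range of 1.08 to 1.79 CPM lay below the control range of 2.03 to 2.93, without overlap as for 20.3% of all genes. Its resistant range of 1.67 to 2.74 overlapped both. The summed level of the brown adipocyte markers was 8997, 11249 and 3976 CPM in the prone libraries, 8914 to 12754 in control and 11825 to 12952 in resistant libraries. Prone libraries thus lay below all resistant ones on that sum and overlapped the controls, and its part in the Gm34218 and Gm46489 values was not tested.

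Gm45954 lies between a chaperone gene that also differed and a second lncRNA. Its span (chr5:149639472-149640346) begins 2974 bases from the 5' end of Hsph1, which encodes HSP110, a chaperone and nucleotide exchange factor for HSP70. It stood at 0.0839, 0.0290, 0.0855 and 0.0536 CPM in control, 0.361, 2.69 and 0.658 in prone and 1.001, 0.457 and 0.329 in resistant libraries, from 9, 138 and 65 counts per group. All 6 high-fat libraries lay above all controls, with prone replicate 2 highest, and prone and resistant overlapped. Against control, the log2 fold change was 4.22 ± 0.79 for prone and 3.17 ± 0.82 for resistant libraries. Without prone replicate 2 the prone value was 2.95.

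Hsph1 had the same highest library. It measured 49.1, 118, 50.3 and 95.8 CPM in control, 163, 551 and 248 in prone and 318, 284 and 238 in resistant libraries, so all high-fat libraries again lay above all controls. It rose by a log2 fold change of 2.04 ± 0.42 in prone (adjusted p = 0.027) and of 1.94 ± 0.38 over both high-fat groups (adjusted p = 0.023). The resistant difference of 1.84 ± 0.42 did not pass (adjusted p = 0.090), and prone and resistant differed by 0.20 ± 0.45 (adjusted p = 0.86). The prone call was lost without control replicate 1 or 3 or prone replicate 3, and without control replicate 4 and prone replicate 3 together it was 2.31 (adjusted p = 0.059). That call was also lost in a fit of only the prone and control libraries (0.077), in edgeR without a filter on low counts (0.066) and by limma without one (0.053). The call over both high-fat groups was lost without control replicate 1, 2 or 3 or resistant replicate 1, and without the filter (0.059). Per 100 Hsph1 counts there were 0.105 ± 0.0762 Gm45954 counts in control, 0.325 ± 0.143 in prone and 0.205 ± 0.0960 in resistant libraries. Within groups, Gm45954 and Hsph1 gave r = 0.54 (exact permutation, p = 0.31, adjusted p = 0.45) and rho = 0.39 (p = 0.40, adjusted p = 0.63). Without control replicate 2 and prone replicate 2, the libraries farthest from the median of Gm45954, r was 0.26.

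Heat shock factor binds inverted repeats of GAA, and the core of that heat shock element was searched for on both strands. It occurs in 0.603% of the 32851 windows. Both annotated start windows of Hsph1 hold it, and none of the 8 members with a window does. Gm45954 and 9430085M18Rik have no such window, so the start of Gm45954 was not searched. The stretch below (chr5:149636280-149636308, minus strand, RefSeq, GRCm38.p6) is shown because it holds the element found in the Hsph1 windows, with the element in capitals:
Hsph1: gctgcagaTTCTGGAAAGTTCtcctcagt
It begins at position 15 from the second annotated Hsph1 start. A match is a description of these letters and not a measured site.

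Gm20005, the lncRNA 876 bases on the other side of Gm45954, stood at 0.0771 ± 0.0585 CPM in control, 0.719 ± 0.848 in prone and 0.286 ± 0.291 in resistant libraries (3.16 ± 1.02 for prone against control, adjusted p = 0.082). Prone replicate 2 was highest here too, at 1.69 CPM. B3glct, a glucosyltransferase gene 37754 bases away, was at 15.6 ± 1.43 CPM in control and 15.7 ± 2.30 in prone libraries (adjusted p = 0.97). Wdr95, a coding gene 27578 bases from Gm45954, did not pass the filter.

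1700047G03Rik was the member with the widest range. It lies on chr15:11967062-11970083, plus strand, between Npr3 (59225 bases away), the clearance receptor that removes natriuretic peptides, and Sub1 (11253 bases away), a transcriptional coactivator gene. Natriuretic peptides drive lipolysis and heat production in fat, and Npr3 limits them. Its start window (chr15:11966812-11967111, plus strand, RefSeq, GRCm38.p6) is shown with its CCAAT matches, read as ATTGG on this strand, in capitals, at positions -94 and -59:
1700047G03Rik: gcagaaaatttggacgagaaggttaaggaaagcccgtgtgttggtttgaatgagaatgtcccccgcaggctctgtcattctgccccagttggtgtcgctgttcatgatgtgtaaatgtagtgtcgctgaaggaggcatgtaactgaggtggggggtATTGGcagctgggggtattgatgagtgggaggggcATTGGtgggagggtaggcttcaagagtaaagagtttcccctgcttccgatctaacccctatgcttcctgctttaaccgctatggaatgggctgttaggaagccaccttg

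The level of 1700047G03Rik was 0.168, 0.348, 0.228 and 0.964 CPM in control replicates 1 to 4, 6.37, 2.12 and 19.4 in prone replicates 1 to 3 and 0.973, 1.53 and 2.002 in resistant replicates 1 to 3. In CPM the groups did not overlap, with prone replicate 3 far above the rest. Control replicate 4 lay just under resistant replicate 1 in CPM but held 36 counts against 35, so only the library scaling put them apart. In FPKM, prone replicate 2 at 1.73 lay below resistant replicate 3 at 2.08, so prone and resistant libraries overlapped on that scale. In log2 fold change this was 4.42 ± 0.77 for prone against control, 1.80 ± 0.78 for resistant against control and 2.63 ± 0.76 for prone against resistant. Without prone replicate 3 the prone value was 3.29, without control replicate 4 it was 5.22, and without both it was 4.08.

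Npr3 rose in prone libraries by 1.86 ± 0.46 on the log2 scale (adjusted p = 0.043). Its values were 73.7, 149, 118 and 282 CPM in control, 649, 237 and 808 in prone and 245, 282 and 260 in resistant libraries. Control replicate 4 overlapped the high-fat libraries. The call was lost in 8 of the 10 fits that left out 1 library, in each but those without control replicate 4 or prone replicate 2 (adjusted p from 0.012 to 0.14), and without control replicate 4 and prone replicate 3 together it was 1.97 (0.036). It was also lost in a fit of only the prone and control libraries (0.10), without a filter on low counts (0.10) and by limma on log2(FPKM + 0.5) (0.059). Resistant against control gave 0.75 ± 0.46 (adjusted p = 0.42).

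1700047G03Rik and Npr3 also varied together within groups by Pearson's r. Deviations from the group means gave r = 0.92 over the 10 libraries (exact permutation within groups, two-sided, p = 0.0023, adjusted p = 0.037 over 16 pairs), the one pair of the 16 to pass by Pearson's r. Spearman's rho was 0.85 (p = 0.0093, adjusted p = 0.15), which did not pass. Without control replicate 1 and prone replicate 3, the libraries farthest from the median of 1700047G03Rik, r was 0.93. Of 14240 coding genes, 178 (1.25%) had a higher within-group r with 1700047G03Rik than Npr3 had. Per 100 Npr3 counts there were 0.249 ± 0.0641 counts of the lncRNA in control, 1.43 ± 0.845 in prone and 0.570 ± 0.187 in resistant libraries, with no overlap between the 3 groups. Sub1 stood at 18.7 ± 1.69 CPM in control and 17.4 ± 1.16 in prone libraries (adjusted p = 0.51). The lncRNA Gm34618, 2871 bases from 1700047G03Rik, did not pass the filter.

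**Figure D2:**
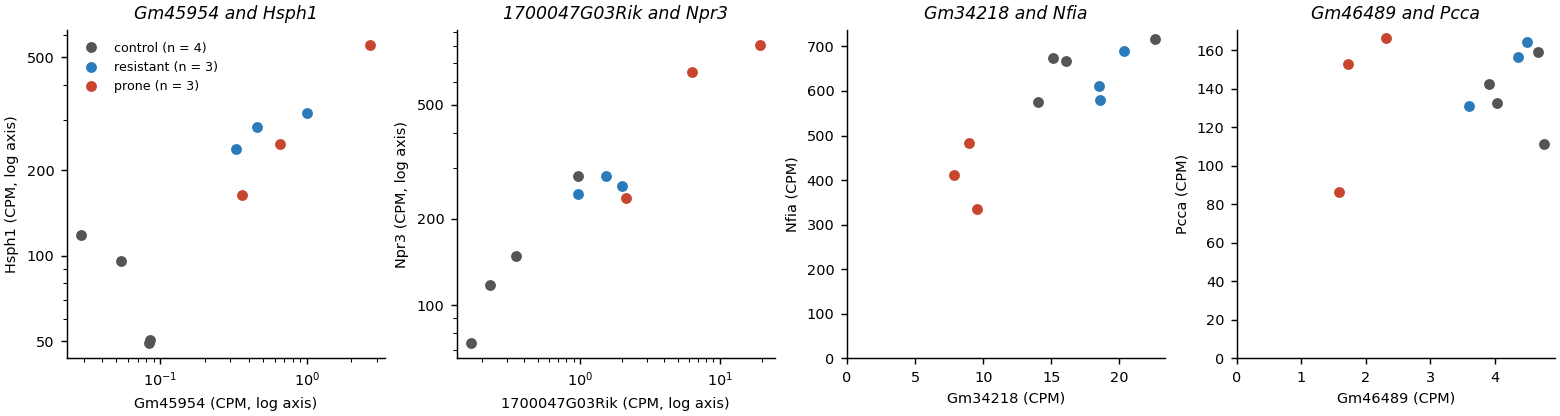
CPM of 4 lncRNAs (x) against a neighbouring gene (y), 1 dot per library (4 control, 3 resistant, 3 prone; log axes in the 2 panels to the left, linear axes from 0 in the others). Prone replicate 2 is highest for both genes of the Gm45954 and Hsph1 panel, prone replicate 3 for both of the 1700047G03Rik and Npr3 panel, and Gm46489 is low in the prone libraries at Pcca values from 86.2 to 166 CPM.

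Macrophage and erythrocyte markers, among other lists, put the prone libraries in the same order as 1700047G03Rik and Npr3 did. The summed CPM of 8 macrophage genes was 132, 135, 103 and 180 in control replicates 1 to 4, 287, 152 and 445 in prone replicates 1 to 3 and 104, 122 and 104 in resistant replicates 1 to 3. All 8 passed the filter and none was at 0 in any library. For prone against control, edgeR called 3 of them higher (Lyz2, Tyrobp and Gpnmb) and DESeq2 called 6. All 8 had an unadjusted p below 0.05 in edgeR, beside 5537 of all 19676 genes, and their median log2 fold change was 1.37. The 5 erythrocyte genes summed to 3436, 1779 and 16086 CPM in prone replicates 1 to 3 and to 520 to 1904 in resistant libraries, with none at 0 and none called by edgeR or DESeq2, while all 5 had an unadjusted p below 0.05 for prone against control. Prone replicate 2 was the lowest and prone replicate 3 the highest of the prone libraries on both lists. That order was not particular to them. Fibroblast and progenitor (513, 385 and 870 CPM), endothelial (1026, 877 and 1038), skeletal muscle and pluripotent cell lists had it too. Brown adipocyte, nerve and Schwann, and testis and germ cell lists had the reverse order, and the other marker lists had neither. The part of these lists in the results was not tested. In bulk tissue, fewer cells of a type and less RNA per cell cannot be told apart.

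**Figure D3:**
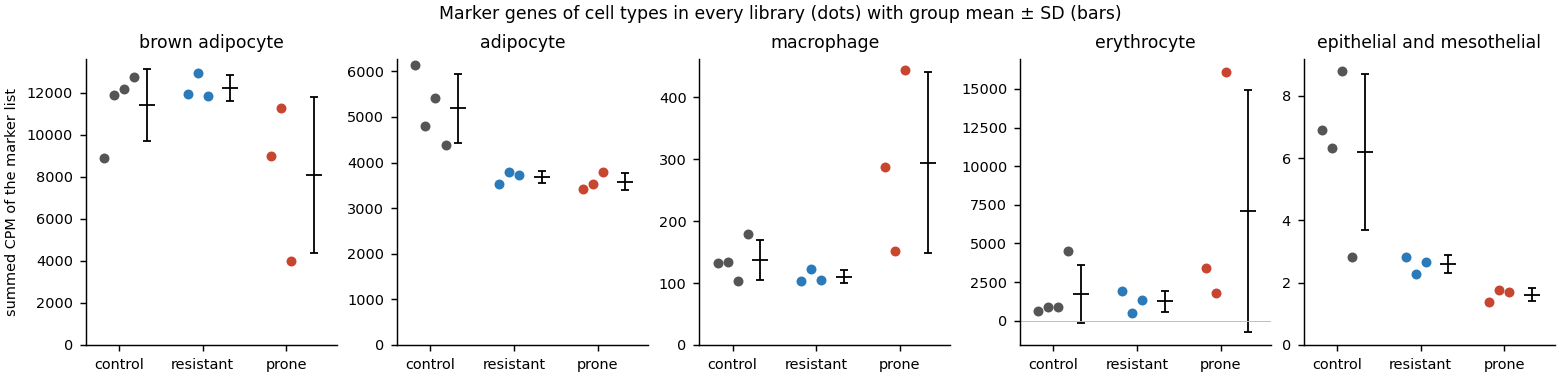
Summed CPM of 5 marker lists in each library (dots, replicates from left to right; bars, mean ± SD; linear axes). Prone replicate 3 is highest for macrophage (445 CPM) and erythrocyte genes (16086 CPM) and lowest for brown adipocyte genes (3976 CPM), and control replicate 4 is the lowest control for the epithelial and mesothelial list (2.81 CPM).

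Gm31522 (chr11:81980578-81987155, minus strand) lies 12182 bases from Asic2, its nearest coding gene. On the other side, 48422 bases away, is Ccl2, the chemokine gene that draws monocytes into tissue. Gm31522 overlaps the plus-strand lncRNA Gm11419, and without a strand setting reads of a shared stretch cannot be assigned with certainty. Neither Asic2 nor Gm11419 passed the filter. Counts of Gm31522 were few: 0.140, 0.0290, 0 and 0.0536 CPM in control, 0.774, 0.218 and 2.11 in prone and 0.0556, 0.188 and 0.329 in resistant libraries, from 8, 118 and 21 counts per group. Prone libraries lay above all controls but overlapped the resistant ones, and prone replicate 3 held most of the prone counts. Its fitted log2 fold change was 4.13 ± 0.91 for prone and 1.71 ± 1.06 for resistant against control, and the prone value was 3.08 without prone replicate 3 and 5.05 without control replicate 1. Ccl2 was at 1.19 ± 1.33 CPM in control, 5.20 ± 2.76 in prone and 2.62 ± 1.86 in resistant libraries. Its groups overlapped, and the difference of 2.12 ± 0.81 between prone and control did not pass (adjusted p = 0.13). The order of the prone libraries was the same for Gm31522 as for macrophage markers and the other lists named above with that order. The part of these lists was not tested.

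9430085M18Rik had the smallest error of the fit among the members with higher levels in both high-fat groups. It lies on chr5:101703549-101763231, plus strand, ending 1862 bases before Cds1, an enzyme gene of phosphatidylinositol and cardiolipin precursors. It overlaps Gm42134, a coding gene model on the minus strand that did not pass the filter, and Nkx6-1, a homeobox gene 38838 bases away, did not pass either. Since no strand setting is given, reads of a stretch shared with Gm42134 cannot be assigned to either gene with certainty. The lncRNA stood at 0.419, 0.406, 0.371 and 0.455 CPM in control, 0.851, 1.14 and 1.13 in prone and 1.81, 1.80 and 0.960 in resistant libraries. Every high-fat library lay above every control, and prone and resistant overlapped. The log2 fold change was 1.33 ± 0.27 for prone and 1.87 ± 0.26 for resistant against control, the one member with the larger difference in resistant mice, though prone and resistant differed by -0.55 ± 0.27 with overlapping libraries. Cds1 stood at 26.04 ± 3.89 CPM in control, 23.7 ± 4.99 in prone and 27.0 ± 1.42 in resistant libraries, with adjusted p of 0.60 and 0.90 against control.

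Lncenc1 lies far from coding genes. Its span (chr13:97434970-97497664, plus strand) begins 181930 bases from Enc1 and ends 400930 bases from Arhgef28. The start window (chr13:97434720-97435019, plus strand, RefSeq, GRCm38.p6) is shown because Lncenc1 separated all 3 groups, with its 2 CCAAT matches, at positions -168 (as ATTGG) and -155, in capitals:
Lncenc1: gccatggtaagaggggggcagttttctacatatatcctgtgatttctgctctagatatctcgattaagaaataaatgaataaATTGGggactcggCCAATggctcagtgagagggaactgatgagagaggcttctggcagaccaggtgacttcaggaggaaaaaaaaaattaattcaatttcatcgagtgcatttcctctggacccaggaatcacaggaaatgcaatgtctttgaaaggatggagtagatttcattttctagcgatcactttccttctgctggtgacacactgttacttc
Lncenc1 stood at 0.112, 0.0290, 0.0570 and 0.0268 CPM in control replicates 1 to 4, at 1.16, 0.816 and 1.11 in prone replicates 1 to 3 and at 0.250, 0.349 and 0.439 in resistant replicates 1 to 3, from 8, 117 and 38 counts per group. No group overlapped another, with resistant libraries in between, and the libraries that stood apart from their groups lay within the range of their own group here or, for control replicate 4, at its low edge. Fitted log2 fold changes were 4.12 ± 0.42 for prone against control, 2.56 ± 0.45 for resistant against control and 1.56 ± 0.37 for prone against resistant. Neither neighbour passed: Enc1 gave -0.07 ± 0.12 (adjusted p = 0.76) and Arhgef28 0.02 ± 0.09 (0.91) for prone against control.

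Of 29 genes tied to Lncenc1 by its description in embryonic stem cells (its protein partners, pluripotency factors and glycolytic genes), 24 were tested. Hk1, which encodes hexokinase 1, rose from 47.0 CPM in control to 101 in prone libraries (log2 fold change 1.10 ± 0.22, adjusted p = 0.026), and Tfcp2l1, a pluripotency factor gene, fell from 1.51 to 0.411 CPM (-1.86 ± 0.40, adjusted p = 0.029). The other 22 passed in neither direction by edgeR. Of the 24, 10 had an unadjusted p below 0.05 in edgeR and 5 were called by DESeq2, beside 5537 and 3111 of all 19676 genes. Among all genes, edgeR called 7% in prone libraries and 6.15% over both high-fat groups. Over both high-fat groups 3 rose (Hk1, the phosphofructokinase gene Pfkp and the nuclear receptor gene Esrrb) and Tfcp2l1 fell. In resistant libraries alone 0 of 24 passed by edgeR, with 6 at an unadjusted p below 0.05 and 4 called by DESeq2. Among all 19676 genes these resistant counts were 28, 3540 and 1142. The median log2 fold change of the 24 was -0.06 in prone libraries, beside 0.005 for all genes. Ptbp1 at 90.1 ± 8.31 CPM in control and 96.9 ± 7.36 in prone libraries, and Hnrnpk at 248 ± 16.7 and 237 ± 16.7, did not pass. Aldoa, Gapdh and Eno1 had the highest CPM of the list, with means over the 10 libraries of 2266, 1469 and 1150.

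Gm39447, Gm32762 and Gm35196 were lower in high-fat libraries and shared a low control library. Gm39447 (chr9:115450495-115539794, plus strand) stood at 10.6, 6.20, 9.32 and 1.07 CPM in control, 0.309, 0.680 and 0 in prone and 1.001, 1.45 and 0.850 in resistant libraries. A count of 0 in prone replicate 3 allows up to 3 counts, for counting error only. Control replicate 4 lay within the resistant range, and every prone library lay below every other library. The log2 fold change was -4.36 ± 0.94 for prone and -2.62 ± 0.82 for resistant against control. The prone value was -5.41 without prone replicate 2 and -3.77 without prone replicate 3. Stt3b, a catalytic subunit gene of oligosaccharyltransferase 140027 bases away, gave -0.20 ± 0.10 (adjusted p = 0.21).

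Gm32762 (chr14:41424608-41430603, plus strand) stood at 2.46, 1.54, 1.82 and 0.375 CPM in control, 0.258, 0.136 and 0.0526 in prone and 0.445, 0.349 and 0.192 in resistant libraries. Prone libraries lay below all controls, and control replicate 4 lay within the resistant range. Its log2 fold change was -3.34 ± 0.68 for prone and -2.22 ± 0.62 for resistant against control. None of its neighbours, all coding gene models without a name of their own, passed the filter.

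Gm35196 (chr14:61686786-61690598, minus strand) lies 4413 bases from Dleu2, the lncRNA that hosts miR-15a and miR-16-1. It stood at 2.15, 0.521, 1.197 and 0.348 CPM in control, 0.103, 0.163 and 0.105 in prone and 0.334, 0.188 and 0.165 in resistant libraries, from 150, 14 and 25 counts per group. The 3 groups did not overlap in CPM, though control replicate 4 and resistant replicate 1 lay close together. Prone replicate 2 and resistant replicate 3 held 6 counts each, at 0.163 and 0.165 CPM, so only the library scaling put them apart. In FPKM the prone range of 0.04 to 0.19 overlapped the resistant range of 0.06 to 0.17. The log2 fold change was -3.06 ± 0.67 for prone and -2.19 ± 0.62 for resistant against control. Without control replicate 1 these were -2.45 and -1.58. Dleu2 was at 98.3 ± 25.0 CPM in control, 74.2 ± 6.85 in prone and 77.0 ± 5.95 in resistant libraries (-0.41 ± 0.17 for prone against control, adjusted p = 0.15).

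These 3 lncRNAs followed each other across the 10 libraries with r between 0.87 and 0.94 of log2 CPM, and 1700047G03Rik ran against Gm39447 with r = -0.98. All points share the group difference by which the set was chosen, so the values are a description. The summed CPM of the 6 epithelial and mesothelial markers had the same order of libraries by group: 6.90, 6.31, 8.81 and 2.81 in control replicates 1 to 4, 1.37 to 1.77 in prone and 2.28 to 2.84 in resistant libraries. Most of that sum was Lrrn4, which fell from 5.33 to 0.673 CPM in prone libraries (-2.98 ± 0.41, adjusted p = 0.0099). Epcam passed the filter but not the test, and Krt8, Msln, Upk3b and Krt18 never exceeded 0.211 CPM, with Krt8 at 0 in 6, Msln and Upk3b in 5 and Krt18 in 2 of 10 libraries. The sum of the 5 adipocyte markers also had control replicate 4 as the lowest control, at 4386 CPM, with all high-fat libraries below it. There prone (3412 to 3787 CPM) and resistant (3526 to 3793 CPM) libraries overlapped, and Lep, one of the 5, was higher in prone libraries. The part of both lists in the result was not tested.

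**Figure D4:**
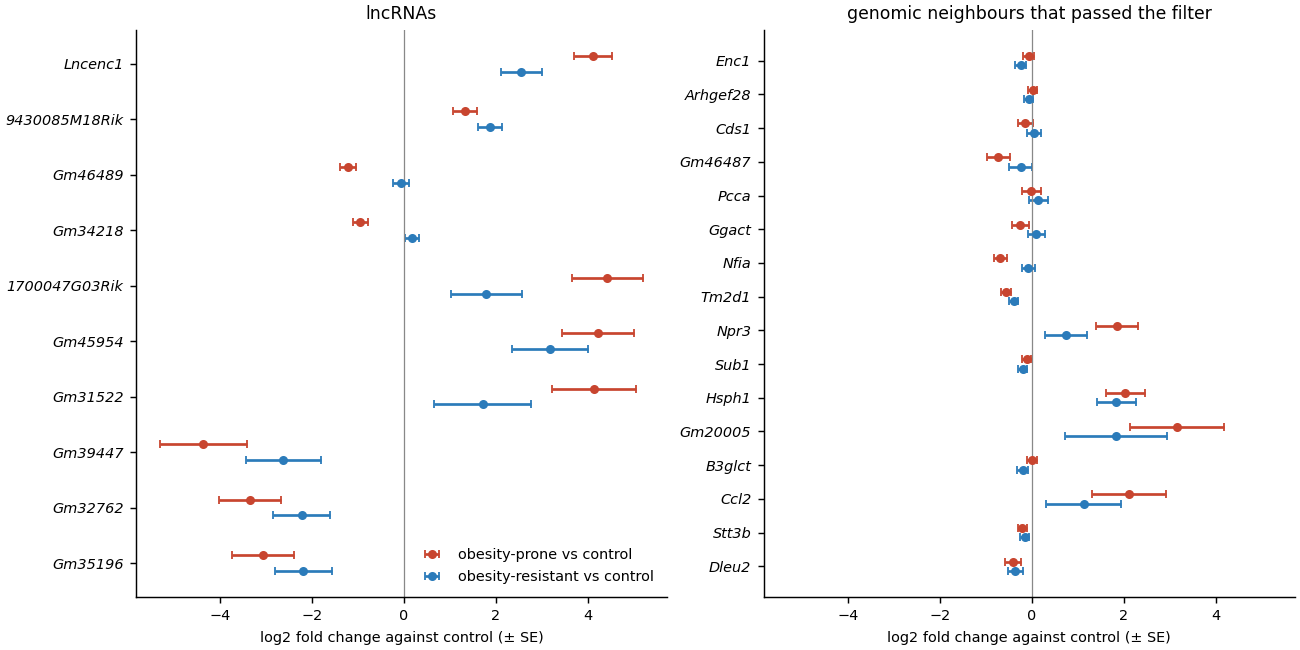
Log2 fold change (± SE of the fit) against control in prone and resistant libraries, for the 10 lncRNAs and for the 16 neighbours that passed the filter. The lncRNAs lie from -4.36 to 4.42 in prone libraries, and most neighbours lie close to 0.

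The size of the members' differences depended on the scale. On log2(FPKM + 0.5), which understates the change of genes at a low level, the prone against control difference was nearer 0 for all 10: 0.75 for Lncenc1, 0.79 for Gm31522, 1.40 for Gm45954, 0.65 for 9430085M18Rik and 2.99 for 1700047G03Rik. For the lower members it was -0.61 for Gm35196, -1.71 for Gm32762, -3.20 for Gm39447, -0.72 for Gm46489 and -0.71 for Gm34218.

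Across the set, RefSeq listed 38 genes within 50 kb of a member or as the nearest coding gene within 1 Mb on either side. Of these 27 were in the table and 16 passed the filter, 14 of them coding, around 9 of the 10 members. In prone against control libraries 4 of the 16 were called: Hsph1 and Npr3 higher, Nfia and Tm2d1 lower. A fit of only the prone and control libraries called 0 of the 15 neighbours it tested. The same count over the neighbours of all lncRNAs tested was 8.33% (413 of 4958), and over the neighbours of the lncRNAs called in this comparison 19.1% (58 of 303). Over both high-fat groups 2 of 16 were called, Hsph1 and Tm2d1, beside 6.15% of all genes and 7.34% of the neighbours of all lncRNAs.

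Resistant against control gave 0 of 16 neighbours by edgeR, beside 0.142% of all genes and 0.182% of the neighbours of all lncRNAs. Of the 16, 2 had an unadjusted p below 0.05 and DESeq2 called 2, beside 3540 and 1142 of all 19676 genes. Prone against resistant gave 0 of 16 by edgeR, where 0 of 19676 genes were called in all and 3030 had an unadjusted p below 0.05, and DESeq2 called 1 neighbour and 567 genes. For 6 members (Lncenc1, 9430085M18Rik, Gm46489, Gm31522, Gm39447 and Gm35196) no tested neighbour was called.

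**Figure D5:**
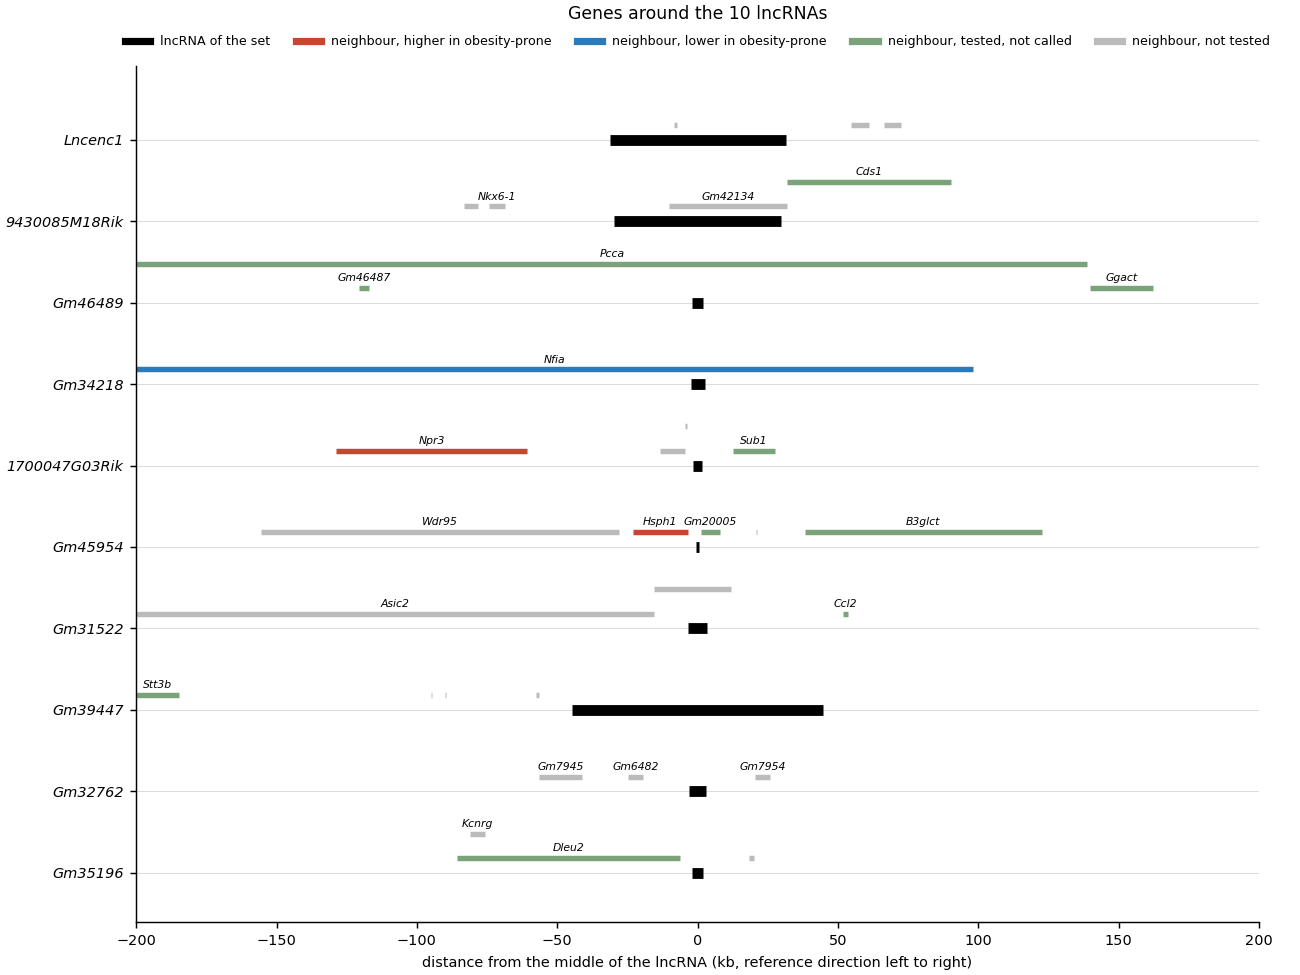
Genes around each lncRNA (black), drawn to scale by distance in kb from its middle, with the reference direction from left to right. Red and blue bars mark neighbours called higher (Npr3, Hsph1) or lower (Nfia) in prone libraries, green bars those tested and not called, grey bars those not tested. Genes beyond the drawn span, such as Tm2d1, are left out.

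In all, 11 motifs were searched in the start windows of the 8 members that have one: the heat shock element core, the PPAR direct repeat, an NF-kB site, the xenobiotic element GCGTG, the E-box CACGTG, the palindromic cAMP element TGACGTCA and the shorter form TGACG that lies within it, the TATA box TATAAA, the CCAAT box, the GC box GGGCGG and the C/EBP palindrome TTGCGCAA. Both strands were read. The TATA box was found in 3 members (Gm46489, Gm34218 and Gm31522) and the CCAAT box in 3 (Lncenc1, Gm34218 and 1700047G03Rik). Of all 32851 windows, 13.6% held the first and 37.4% the second. No member window held the GC box, GCGTG or TGACG, which 35.7%, 32.4% and 20.8% of all windows held. None of the 11 was found in the windows of Gm39447, Gm32762 or Gm35196. The Gm39447 window (chr9:115518721-115519020) lies well inside its span, which begins at 115450495, so the first part of that span was not searched. The Gm35196 window (chr14:61690263-61690562) also lies inside its span, which ends at 61690598. That says only that these letters are not in these windows.

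The genes whose log2 CPM followed each member most closely over the 10 libraries, among 14240 named coding genes, are given by Pearson's r. Rspo4, an enhancer of Wnt signalling, led for Lncenc1 (0.99), with Gm10591 and Ccl21d next (both 0.97), which are near-identical chemokine gene copies and uncertain. Parp14, Xaf1 and Gpr137b led for 1700047G03Rik (0.99, 0.98 and 0.98), and Map3k8, Zc3hav1 and Zfp90 for Gm31522 (all 0.96). Tpp1, Bcl9l and Dedd2 led for Gm45954 (all 0.97) and 3110082I17Rik, B3galnt2 and Camta1 for 9430085M18Rik (all 0.96). Among the lower members, Swi5, Mrpl14 and Arel1 led for Gm39447 (all 0.99), S100a1, Sorcs2 and Polr2i for Gm32762 (0.99, 0.99 and 0.98), and Zfp703, Med12l and Rfng for Gm35196 (0.98, 0.97 and 0.97). Values were lower for Gm46489 (Mterf2, 1700010I14Rik and Pcid2, all 0.93) and for Gm34218 (Gm12258, Rbks and Gm21119, 0.93, 0.92 and 0.90). The members were chosen by group differences in these same libraries, so the r values are a description. Spearman's rho of the 30 genes ran from 0.71 for Rbks to 1 for Swi5. No neighbour was among these 30 genes, which says little, since only 14 coding neighbours were tested.

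Of 54 other lncRNAs of known name, 48 were in the table and 45 tested. In prone libraries Dubr rose by 0.65 ± 0.15 on the log2 scale (adjusted p = 0.035), while Jpx (-0.58 ± 0.14, adjusted p = 0.041) and Firre (-0.34 ± 0.08, adjusted p = 0.040) fell. The rest of the 45 were not called there by edgeR, which called 7% of all genes and 5.35% of all lncRNAs tested. Of the 45, 14 had an unadjusted p below 0.05 in edgeR and 7 were called by DESeq2, beside 5537 and 3111 of all 19676 genes. Over both high-fat groups Neat1, the scaffold RNA of paraspeckles, rose (0.60 ± 0.15, adjusted p = 0.046), and Mir99ahg and Firre fell, with log2 fold changes of -0.88 and -0.32. None of the 45 passed in resistant libraries alone by edgeR, with 6 at an unadjusted p below 0.05 and 4 called by DESeq2. Among all 19676 genes these counts were 28, 3540 and 1142. The median log2 fold change of the 45 in prone libraries was 0.07, beside -0.06 for all lncRNAs tested. Malat1, Neat1 and Lncpint had the highest CPM, with means over the 10 libraries of 10135, 1816 and 876, a scale not corrected for transcript length.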

How the data were processed

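RNA sequencing of 10 brown adipose tissue libraries was analysed from one gene table. Per the labels' protocols, the authors aligned reads with Bowtie2 2.2.5 to a BGI database of coding and noncoding transcripts and used RSEM 1.2.12 to obtain expression levels. The deposited table holds expected counts and an expression column for each library, whose unit was read as FPKM from its values. HISAT2 2.0.4 and the build GRCm38.p6 come from the submitters' processing notes. An annotation release and a strand setting are not given in the sources used here. The 6 deposited columns of group means were not used, and 7872 genes without a name (23.7% of counts) stayed in the fits.

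The rounded expected counts were fitted in edgeR 4.0.16 (R 4.3.3) by its robust quasi-likelihood method, after filterByExpr (minimum count 10) and TMM scaling, with 3 groups over 10 libraries (7 residual degrees of freedom). P-values were adjusted by Benjamini-Hochberg over 19676 genes, with a threshold of 0.05. The script was tested on simulated data. Coordinates, neighbours and start windows came from RefSeq (GRCm38.p6), which matched 24350 of 25017 numeric identifiers, and strands and Nfia and Pcca exons from GENCODE M21 (GRCm38). Start windows were found for 8 members, and not for Gm45954 and 9430085M18Rik. Neighbours were all genes within 50 kb or overlapping, plus the nearest coding gene on each side within 1 Mb. Genes named were the members and the tested neighbours that were called or were the nearest coding gene, with some neighbours that did not pass the filter. Also named were the 3 most alike coding genes by Pearson's r of log2 CPM (prior count 2), and the called or most abundant genes of 2 lists. Alternatives were DESeq2 1.42.0, RLE factors, other filters, a fit of only the groups compared, a replicate block, limma 3.58.1 on log2 FPKM and leaving out libraries. Members and lists were chosen with earlier results of these data known.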

Additional observations from a re-analysis of the deposited data

Results flagged for a closer look

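B3glct, the glucosyltransferase gene 37754 bases from Gm45954, was at 13.4 CPM in control replicate 2, while the other control libraries lay between 16.1 and 16.4 CPM. The gap to the nearest library was 0.883 of the whole range, above Dixon's limit for 4 libraries. Chance marks about 1 in 20 groups this way, and 26 genes were looked at, the members and their tested neighbours.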

How the results depend on the processing

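For prone against control, no member and none of the 4 called neighbours changed sign under any alternative run. In comparisons where they were not called, signs changed for Hsph1 and Gm45954 (prone against resistant, to -0.45 and -0.22 without prone replicate 2), Gm46489 (resistant against control, to 0.03 without resistant replicate 2) and Nfia (resistant against control, to 0.05 by limma). Members' fold changes shrank on the log2(FPKM + pseudocount) scale by its construction, Lncenc1 from 4.12 to 1.97 with a pseudocount of 0.1 and to 0.75 with 0.5. Counts of genes called moved by over 1.5 times with many choices. DESeq2 called 3111 genes for prone against control, 1142 for resistant against control, 567 for prone against resistant and 2562 over both high-fat groups, with 2, 1 and 5 neighbours in the last 3. Fits of only the groups compared called 66 genes and 0 neighbours for prone, and 391 genes and 1 neighbour for resistant libraries. Without a filter on low counts, 2 neighbours were called for prone libraries, 76 genes for resistant and 1 neighbour over both, and a stricter filter gave 68 genes for resistant. Limma on log2(FPKM + 0.5) without a filter called 280 genes and 1 neighbour for prone, 8 genes for resistant, and 287 genes and 1 neighbour over both. Without control replicate 4 and prone replicate 3, an alternative chosen after seeing the data, 2635, 2212 and 3700 genes were called for prone, resistant and both against control, with 1 neighbour for resistant and 4 over both. With 1 library left out, genes called ranged from 76 to 3040 for prone (neighbours 0 to 5), from 3 to 864 for resistant (0 to 1), from 0 to 871 for prone against resistant (0 to 1) and from 56 to 2592 over both (0 to 4). The causes were not tested.

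Replicate numbers are shared by the groups, but the labels do not say that they mark a shared animal, litter or day. Deviations of same-numbered libraries from their group means correlated between -0.15 and 0.21, so the numbers were not taken to pair the libraries. A fit with the replicate block called 1582 genes and 5 neighbours for prone (Ccl2 besides the 4), 382 genes and 1 neighbour (Hsph1) for resistant, 0 genes for prone against resistant, and 1473 genes and 3 neighbours over both.

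Members under 1 CPM in control rest on few counts, 8 for Lncenc1 and Gm31522 and 9 for Gm45954 over the 4 control libraries, so their fold changes depend on the prior count and have wide errors. Causes such as cell makeup were not tested, and 16 neighbours are too few to describe neighbours of lncRNAs in general.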
